A study of Arabidopsis thaliana with 4 samples.

Results

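The 9 genes described here promote flowering in Arabidopsis thaliana: FT, TSF, CO, SOC1, FUL, LFY, SPL3, SPL4 and SPL5. They were chosen by name and locus and not by a cutoff on their values, though earlier results of these data were known. All 9 were found among the 34262 genes of each table. The data are RNA-seq of 14-day-old plants of the Col-0 ecotype, grown under long days at 22 °C, in 4 genotypes. WT is the control, hda6 carries a mutation in the histone deacetylase HDA6, and ldl1/2 carries mutations in LDL1 and LDL2, LSD1-type enzymes that take methyl groups off histones. The last genotype, hda6/ldl1/2, combines them by its label. The labels name no allele, line, tissue or hour of harvest, and list 1 sample for each genotype. Each of the 3 deposited tables compares a mutant with the same WT, so the 3 comparisons share their control. Each gene has there the larger group mean in RPKM (reads scaled by exon length and library size) with a log2 fold change, its p-value and FDR. "Rose" and "fell" are used only where the deposited FDR was under 0.05.

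Day length is read in the leaf. In long days the transcription factor CO accumulates at the end of the day and switches on FT in phloem companion cells. The FT protein, the mobile florigen, moves to the shoot apex and there acts with the bZIP protein FD on SOC1, FUL, LFY and other genes that turn the meristem to flowering. A second route runs through age: the microRNA miR156 falls as a plant matures, which releases SPL transcription factors that act on the same apical genes. The MADS-box repressor FLC, held low by the autonomous pathway and by vernalization, works against both FT and SOC1. CO and FT transcripts cycle through the day, so their level depends on the hour of harvest.

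The printed means could be split into whole reads, which showed 3 WT libraries of 51.6, 50.4 and 48.6 M reads and 2 libraries for each mutant. These were 47.5 and 47.3 M reads for hda6, 42.6 and 40.2 for ldl1/2, and 49.4 and 43.8 for hda6/ldl1/2. All 19 printed means of the 9 genes were matched by a single combination of whole reads. Over all listed genes and those overlapping the 9, this held for 275 of 277 means, and 2 were matched by several combinations. With the exon length set 1 base too long, 1 of these 277 was matched. Library values are given below in the order of the libraries above. Where a group had the lower mean it is not printed, and that mean was rebuilt from the deposited fold change. Deposited log2 fold changes differed from ratios of printed means by a median of 0.06 in hda6, -0.03 in ldl1/2 and 0.13 in hda6/ldl1/2. This offset was taken out in the rebuilding, so the ratio of a rebuilt mean to WT can differ from the deposited fold change. The libraries are not tied to listed samples, and no source used here says whether they were separate plants, so their p-values measure only the spread between libraries, which may be technical. The WT library of 51.6 M reads stood apart: it was the lowest of the 3 in 51.8% of 10551 genes. Of the targeted genes, LDL1 and LDL2 fell in ldl1/2 (log2 -0.79 and -1.17 in the authors' deposited table). They stood at 0.05 and -0.32 in the samples whose label is hda6/ldl1/2 and neither passed the FDR, so these transcripts go against that label, and the group is named by its label here. HDA6 itself was higher in hda6 and in hda6/ldl1/2-labelled samples (log2 0.53 and 0.59 in the authors' deposited table).

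The change was broadest in ldl1/2. There FT, SPL3 and SOC1 fell, FUL rose, and the other 5 genes did not pass the FDR in the authors' deposited table. That is 1 of 9 higher and 3 of 9 lower, where 6.94% of all 24905 genes with a fold change were called (3.75% higher and 3.2% lower). SPL3 and SOC1 also fell in hda6/ldl1/2-labelled samples, 2 of 9 where 15% of all genes were called (8.61% higher and 6.4% lower). In hda6 none of the 9 passed the FDR in the authors' deposited table, where 7.63% of all genes did (4.05% higher and 3.58% lower), and SPL5 alone had an unadjusted p under 0.05. These shares of all genes called also stand beside the counts for the gene lists below. The median log2 fold change of the 9 genes was -0.08 in hda6, 0.19 in ldl1/2 and -0.51 in hda6/ldl1/2-labelled samples. Each median is the value of 1 gene: FUL in hda6, LFY in ldl1/2 and SOC1 in hda6/ldl1/2-labelled samples. LFY rests on few reads, so 0.19 gives no common direction in ldl1/2. Over all genes with a fold change the medians were 0.01, -0.01 and 0.02 in the same order. Over all genes of at least 1 RPKM the median was -0.01 in each comparison. The plants were sequenced in bulk, so fewer cells expressing a gene and less RNA per cell cannot be told apart.

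**Figure D1:**
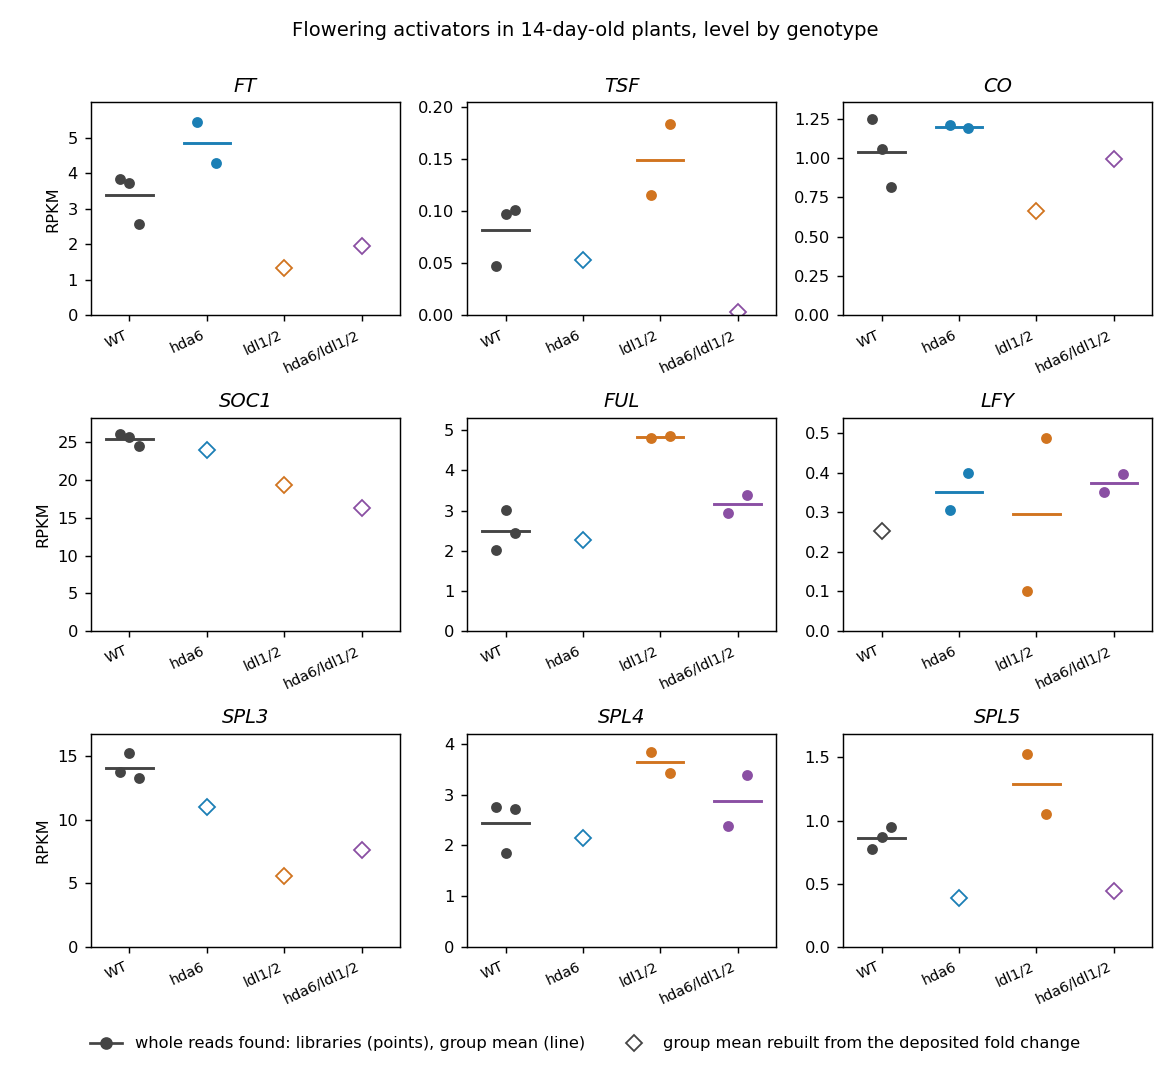
Level of each of the 9 flowering activators in RPKM (linear axis from 0, a separate scale for each gene) in the 4 genotypes. Filled points are libraries whose whole reads were found, lines are their means, and open diamonds are group means rebuilt from the deposited fold change; the FT diamond of ldl1/2, at 1.33 RPKM, lies below all 3 WT libraries, and both FUL points of ldl1/2 lie above all 3.

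FT, the florigen gene, was called in ldl1/2. FT (AT1G65480) lies on chromosome 1 at 24331373 to 24333999 on the plus strand of TAIR10.1. In WT its libraries held 193, 183 and 122 reads, or 3.83, 3.72 and 2.58 RPKM. In hda6 they held 252 and 198 reads, or 5.44 and 4.29 RPKM, and both values were above all 3 WT libraries. The rebuilt mean was 1.33 RPKM in ldl1/2 (about 107 reads over the group) and 1.96 RPKM in hda6/ldl1/2-labelled samples (about 178 reads), both below the lowest WT library. FT fell in ldl1/2 by 1.38 on the log2 scale in the authors' deposited table, a 2.60-fold change (FDR 0.00540), and the p-value implies a standard error of 0.37. Its value in hda6 was 0.58 (FDR 0.558), and in hda6/ldl1/2-labelled samples it was -0.65 (FDR 0.310), both from the authors' deposited table. The order from high to low was therefore hda6, WT, hda6/ldl1/2 and ldl1/2, and no pair of neighbours in it was separated: neither hda6 nor hda6/ldl1/2 passed the FDR against WT, and the interval between hda6/ldl1/2 and ldl1/2 held 0. The 3 WT libraries differed from highest to lowest by 1.49 times, where genes of 2 to 5 RPKM had a median of 1.23 and a 95th percentile of 1.79. Without the WT library that stood apart, the change in ldl1/2 was -1.28, and leaving out each WT library in turn gave -1.54 to -1.28.

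TSF (AT4G20370, chromosome 4, 11000771 to 11003010, minus strand) is the closest relative of FT and a florigen as well. It was barely detected, with 2, 4 and 4 reads in the WT libraries and 4 and 6 in those of ldl1/2. The rebuilt mean came to about 4 reads over both hda6 libraries. In hda6/ldl1/2-labelled samples it came to 0.24 reads over the group, under the floor of 3 reads (FDR 0.491 in the authors' deposited table). No difference in TSF was detectable at this depth.

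CO (AT5G15840, chromosome 5, 5170162 to 5173085, minus strand), the B-box factor that turns on FT in the leaf, was near 1 RPKM. Its WT libraries held 188, 156 and 116 reads, or 1.25, 1.06 and 0.817 RPKM. The hda6 libraries held 168 and 165 reads, or 1.21 and 1.19 RPKM, inside the WT range. The rebuilt mean was 0.661 RPKM in ldl1/2, below all WT libraries, and 0.996 RPKM in hda6/ldl1/2-labelled samples. In ldl1/2 the log2 fold change was -0.69 with an unadjusted p of 0.0168, which did not pass in the authors' deposited table (FDR 0.209). It was 0.26 (FDR 0.993) in hda6 and 0.07 (FDR 1.00) in hda6/ldl1/2-labelled samples in the authors' deposited tables. The exons of both CO transcripts together cover the whole gene of 2924 bases, so reads from its intron count towards this level. A further 738 of these bases (25.2%) are shared with AT5G15843 on the other strand, which the tables list at 0. The library kit does not mark strand, and reads of overlapping genes on opposite strands could not be told apart.

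Among 24 genes that control CO and FT through light and the clock, 1 rose in hda6, none passed in ldl1/2 (1 had an unadjusted p under 0.05) and 2 rose in hda6/ldl1/2-labelled samples, in the authors' deposited tables. Beside the 7.63%, 6.94% and 15% of all genes called, these counts do not set the list apart. GI, a clock protein that with FKF1 removes repressors of CO, rose in hda6 by 0.53 (FDR 0.000127) and in hda6/ldl1/2-labelled samples by 0.39 (FDR 0.00789). Its libraries stood at 22.0, 18.9 and 20.5 RPKM in WT, 28.1 and 28.8 in hda6, and 25.8 and 23.2 in hda6/ldl1/2, with both mutants above all WT libraries. NF-YB3, a subunit of the NF-Y complex through which CO acts, rose in hda6/ldl1/2-labelled samples by 0.33 in the authors' deposited table (FDR 0.0406). Of 3 relatives of CO, COL5 fell in ldl1/2 by 0.39 in the authors' deposited table (FDR 0.0211), while COL1 and COL2 did not pass in any comparison. The phloem companion cell is where FT is made, and its markers moved as well. Of 3, SUC2 and AHA3 rose in hda6, SULTR2;1 rose in ldl1/2, and all 3 rose in hda6/ldl1/2-labelled samples in the authors' deposited tables. Their summed level was 124 RPKM in WT, 148 in hda6, 141 in ldl1/2 and 161 in hda6/ldl1/2, and its part in the FT values was not tested. Among 4 leaf photosynthesis markers 2, the light-harvesting genes LHCB1.1 and LHCB2.1, were called in each comparison, in the direction of the FT value in hda6 and ldl1/2. In the authors' deposited tables they rose in hda6 by 1.11 and 1.26, fell in ldl1/2 by 1.02 and 0.72, and rose in hda6/ldl1/2-labelled samples, where FT stood at -0.65, by 0.995 and 1.18. RBCS1A and RCA did not pass in any table, and the summed level of the 4 was 11444 RPKM in WT, 11189 in hda6, 10356 in ldl1/2 and 11392 in hda6/ldl1/2. Their part in the FT values was not tested either. LHCB1.1 has near-identical copies, so its own values are uncertain.

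The relatives of FT include TFL1, BFT and ATC, which delay flowering, and MFT, which acts mainly in seeds. Of these 4 genes none passed in hda6 (1 had an unadjusted p under 0.05), and MFT rose in ldl1/2 by 1.11 in the authors' deposited table (FDR 0.0385). In hda6/ldl1/2-labelled samples BFT rose by 1.44 (0.80 without the library of 43.8 M reads), while TFL1 fell by 1.16 and ATC by 0.62 in the authors' deposited table. The FT partners FD, FDP and FTIP1, the last of which helps FT leave the companion cell, gave 0 of 3 past the FDR in each of the 3 comparisons of the authors' deposited tables. FTIP1 in hda6 was the only 1 of these values with an unadjusted deposited p under 0.05.

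**Figure D2:**
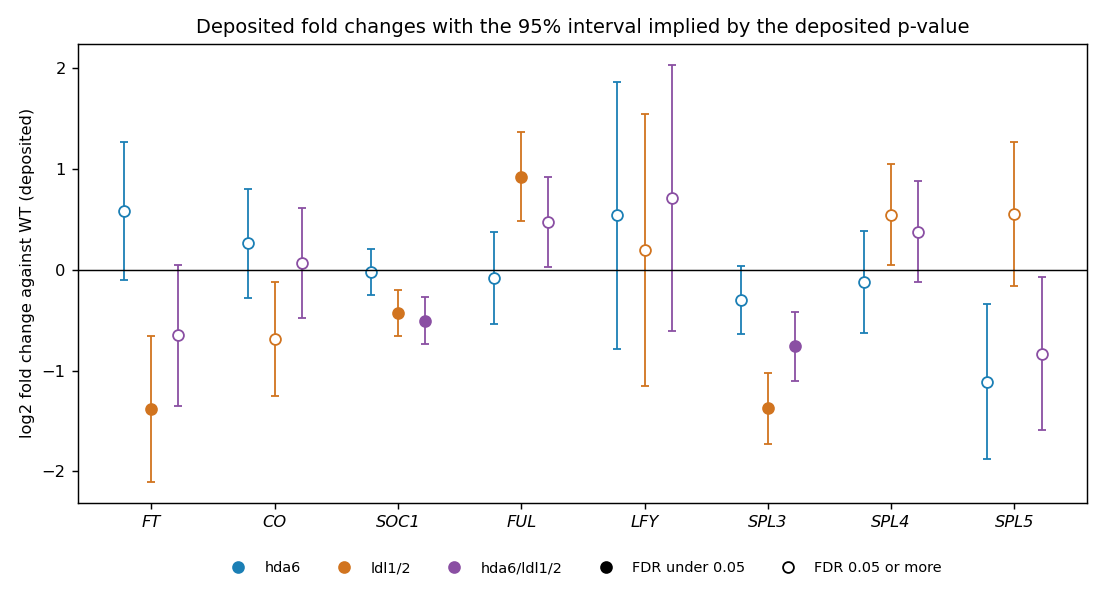
Deposited log2 fold change against WT (vertical axis) of 8 flowering activators in hda6, ldl1/2 and hda6/ldl1/2, with bars for the 95% interval that the deposited p-value implies. TSF is left out because it rests on few reads; filled points, which have an FDR under 0.05, are FT, SOC1, FUL and SPL3 in ldl1/2 and SOC1 and SPL3 in hda6/ldl1/2.

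SOC1 and FUL, MADS-box genes that act together at the shoot apex, moved in opposite directions in ldl1/2. SOC1 (AT2G45660, chromosome 2, 18807505 to 18811125, minus strand) was the most abundant of the 9 per exon length. Its WT libraries held 2089, 2011 and 1852 reads, or 26.1, 25.7 and 24.5 RPKM. The rebuilt mean was 24.0 RPKM in hda6, 19.3 in ldl1/2 and 16.4 in hda6/ldl1/2-labelled samples, and the last 2 lie well under the narrow WT range. SOC1 fell by 0.43 in ldl1/2 (FDR 0.00766) and by 0.51 in hda6/ldl1/2-labelled samples (FDR 0.000384), against -0.03 (FDR 1.00) in hda6, in the authors' deposited tables. The implied standard error was 0.12 in each comparison, the smallest among the 9 genes. The difference between the 2 lower groups was -0.08 with an interval of -0.40 to 0.25, so they were not separated.

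FUL (AT5G60910, listed as AGL8, chromosome 5, 24502434 to 24506269, minus strand) was the 1 gene of the 9 that rose in any comparison. WT libraries held 136, 198 and 155 reads, or 2.02, 3.01 and 2.45 RPKM. In ldl1/2 they held 267 and 254 reads, or 4.81 and 4.85 RPKM, and so lay close together and above every WT library. In hda6/ldl1/2-labelled samples they held 189 and 193 reads, or 2.94 and 3.38 RPKM, which overlapped the highest WT library. FUL rose in ldl1/2 by 0.92 in the authors' deposited table, a 1.89-fold change (FDR 0.00143). Its value was 0.47 (FDR 0.207) in hda6/ldl1/2-labelled samples and -0.08 (FDR 1.00) in hda6, in the authors' deposited tables. From the printed means, leaving out any 1 library of WT or ldl1/2 gave 0.82 to 1.11 for the rise in ldl1/2.

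Among 7 further MADS-box genes related to SOC1 or active in flowering, none passed in hda6, where 2 had an unadjusted p under 0.05. AGL24, a partner that carries SOC1 to the nucleus, fell in ldl1/2 by 0.53 in the authors' deposited table (FDR 0.000654). In the authors' deposited table for hda6/ldl1/2-labelled samples AGL42 fell by 1.25 and AGL14 by 0.83. For ldl1/2 AGL42 stood at 1.2-fold and AGL14 at 1.12-fold of WT in the authors' deposited table, and neither passed. The 2 genes with an unadjusted p under 0.05 in hda6 were these same genes. There AGL42 stood at -0.80 (FDR 0.101) and AGL14 at -0.73 (FDR 0.0834) in the authors' deposited table. The root markers CASP1 and PHT1;1 also fell in hda6/ldl1/2-labelled samples, by 1.18 and 0.99 in the authors' deposited table. The root marker IRT1, an iron transporter, rose in hda6 (2.00-fold in the authors' deposited table). The summed level of all 4 root markers was 56.9 RPKM in WT and 27.6 there, against 55.7 in hda6 and 57.0 in ldl1/2. Its part in the fall of AGL42 and AGL14 was not tested.

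LFY (AT5G61850, chromosome 5, 24844248 to 24846989, plus strand), which gives a new primordium its floral fate, was low in every genotype. The libraries held 20 and 26 reads in hda6, 6 and 27 in ldl1/2, and 24 and 24 in hda6/ldl1/2, and the rebuilt WT mean was 0.252 RPKM. The 2 ldl1/2 libraries, at 0.102 and 0.487 RPKM, lie on both sides of that mean. Log2 fold changes were 0.54, 0.19 and 0.71 in the authors' deposited tables, with implied standard errors of 0.67 to 0.69 and no FDR under 0.05. A difference in LFY was not detectable with so few reads and this spread between libraries.

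Downstream of LFY, the floral meristem gene AP1 was at most 0.313 RPKM in all tables and did not pass in any of them. Of 11 genes for floral meristem and organ identity, 1 fell in hda6, 2 rose and 1 fell in ldl1/2, and 2 rose in hda6/ldl1/2-labelled samples, in the authors' deposited tables. The share of all genes called was 7.63% in hda6, 6.94% in ldl1/2 and 15% in hda6/ldl1/2-labelled samples. In the authors' deposited table SEP1 and SEP4, MADS-box cofactors of floral organs, rose in ldl1/2 by 1.27 and 0.58, whereas SEP3 fell there by 0.64. SEP4 also rose in hda6/ldl1/2-labelled samples by 0.81 in the authors' deposited table. The floral organ markers AP3, PI and AG had a summed level of 1.95 RPKM in WT, and the lowest among the mutants was 1.45 RPKM in hda6. AP3 made the 1 call in hda6 (log2 -2.11, FDR 0.0254) in the authors' deposited table, from 0.512 RPKM in WT. The shoot meristem markers, summed at 10.5 RPKM in WT, 8.39 in hda6, 10.5 in ldl1/2 and 7.96 in hda6/ldl1/2, gave no call in any table. STM, a meristem gene, had an unadjusted p under 0.05 in hda6 (0.0444) and in hda6/ldl1/2-labelled samples (0.00792), in the authors' deposited tables.

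SPL3, SPL4 and SPL5 encode small SBP-box factors and are silenced by miR156 through a site in the transcript. The mature miR156a-5p and the sites are shown because all 3 genes carry the same seed match but did not move together. Capitals mark the seed (bases 2 to 8) in the microRNA and its complement in each target; letters are RNA, read 5′ to 3′ from the TAIR10.1 sequence and the RefSeq annotation.
miR156a-5p: uGACAGAAgagagugagcac
SPL3 site: uugcuuacucucUUCUGUCa
SPL4 site: cugcucucucucUUCUGUCa
SPL5 site: ccgcucucucucUUCUGUCa
The microRNA lies at chr2:10676534-10676553 on the minus strand, and 6 of the 10 annotated mature miR156 sequences are identical to it. The SPL3 site is at chr2:14305878-14305897 on the plus strand, in the 3′ UTR, with 2 mismatches to the complement over its 20 bases. The SPL4 site, at chr1:19807090-19807109 on the plus strand, has 2 mismatches and is 3′ UTR or intron depending on the transcript. On the opposite strand the same 20 bases are annotated as mature miR156i. The SPL5 site is at chr3:5140598-5140617 on the minus strand, in the 3′ UTR, with 3 mismatches. No other gene of the 9 had a stretch of its unspliced sequence, introns included, with fewer than 6 mismatches. The tables do not measure mature microRNAs.

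SPL3 (AT2G33810, chromosome 2, 14305001 to 14306072, plus strand) gave the smallest FDR of the 9. Its WT libraries held 696, 756 and 633 reads, or 13.7, 15.3 and 13.3 RPKM. Rebuilt means were 11.0 RPKM in hda6, 5.56 in ldl1/2 and 7.61 in hda6/ldl1/2-labelled samples, all under the WT range. SPL3 fell in ldl1/2 by 1.37, a 2.59-fold change (FDR 2.68e-12), and in hda6/ldl1/2-labelled samples by 0.76 (FDR 0.000320), in the authors' deposited tables. In hda6 the value was -0.30 (FDR 0.510) in the authors' deposited table. The samples labelled hda6/ldl1/2 lay 0.62 above ldl1/2 on the log2 scale, with an interval that left out 0 (lower bound 0.13). Of the 981 exon bases of SPL3, 955 (97.3%) are shared with the non-coding AT2G33815 on the other strand. Reads assigned to AT2G33815 were 8, 32 and 32 in the WT libraries. Because the library kit does not mark strand, these counts do not bound its share of the reads given to SPL3. Its log2 fold changes were -0.49, -1.34 and -1.51 in the authors' deposited tables, none with an FDR under 0.05.

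SPL4 (AT1G53160, chromosome 1, 19806263 to 19807705, plus strand) did not follow SPL3. WT libraries held 194, 127 and 180 reads, or 2.75, 1.85 and 2.71 RPKM. Those of ldl1/2 held 224 and 188 reads, or 3.85 and 3.43 RPKM, above all WT libraries, and those of hda6/ldl1/2 held 160 and 203, or 2.37 and 3.39 RPKM, overlapping WT. The log2 fold changes were -0.12 (FDR 1.00) in hda6, 0.54 (FDR 0.327) in ldl1/2 and 0.37 (FDR 0.495) in hda6/ldl1/2-labelled samples, in the authors' deposited tables. The last of these rests on 1 library: without that of 43.8 M reads the ratio of the printed means was -0.04.

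SPL5 (AT3G15270, chromosome 3, 5140365 to 5142323, minus strand) was the lowest of the 3. WT libraries held 75, 82 and 86 reads, or 0.776, 0.869 and 0.946 RPKM, and those of ldl1/2 held 122 and 79, or 1.53 and 1.05 RPKM. Rebuilt means were 0.385 RPKM in hda6 and 0.442 in hda6/ldl1/2-labelled samples, so ldl1/2 lay above every WT library and the other 2 groups below. The log2 fold changes of -1.11 in hda6 (FDR 0.0738), 0.55 in ldl1/2 (FDR 0.731) and -0.83 in hda6/ldl1/2-labelled samples (FDR 0.185) did not pass in the authors' deposited tables. Of its 1872 exon bases, 477 (25.5%) are shared with AT3G15260 on the other strand, a gene whose larger group mean was 15.0 to 19.4 RPKM in the 3 tables. AT3G15260 had log2 fold changes of -0.13, 0.34 and 0.03 in the authors' deposited tables, none past the FDR, and its part in the SPL5 values was not tested.

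Of 8 other SPL genes of the miR156-regulated type, 2 fell in hda6, 1 in ldl1/2 and 2 in hda6/ldl1/2-labelled samples, and none rose, in the authors' deposited tables. Among all genes 3.58%, 3.2% and 6.4% were called lower in these comparisons. SPL13A was lower in all 3, by -1.54, -2.07 and -1.82 on the log2 scale in the authors' deposited tables, from 2.39 RPKM in WT. It has a near-identical copy, SPL13B, between which reads could be split, so its values are uncertain. SPL13B itself did not pass in any table. SPL11 fell in hda6 by 0.67 and in hda6/ldl1/2-labelled samples by 0.92 in the authors' deposited tables. SPL9, a main factor of the age pathway, stood at 1.05-fold, 1.05-fold and 1.07-fold of WT in the authors' deposited tables and did not pass.

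The repressors that act on FT and SOC1 are read against these values. FLC binds FT within its first intron and SOC1 in its promoter, at sequences of the CArG type that MADS-box proteins recognise. A CArG box (CC, then 6 letters that are each A or T, then GG) was searched on both strands in each of the 9 genes and 1000 bases before it. It was found once in FT and once in SOC1, and not in the other 7. The 60-base stretches around it are shown with the box in capitals, each read 5′ to 3′ on the strand of its gene.
FT intron: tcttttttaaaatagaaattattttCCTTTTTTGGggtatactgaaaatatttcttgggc
SOC1 upstream: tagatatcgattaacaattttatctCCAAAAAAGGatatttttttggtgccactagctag
The FT stretch is chr1:24331776-24331835 on the plus strand of TAIR10.1, 428 bases into the gene. The SOC1 stretch is chr2:18811802-18811861 on the minus strand, with the box 711 bases before the start of the gene. The same letters occur in 7.21% of the 1000-base windows before 27443 genes, and in 14.9% of windows of the length of FT from the start of 27441 genes. Beside these shares, 1 match among 9 genes in each kind of window does not set the 9 genes apart. A match describes letters only; binding was not measured.

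Of the 6 genes of the FLC clade, 2 rose in hda6, 3 in ldl1/2 and 3 in hda6/ldl1/2-labelled samples, in the authors' deposited tables. Among all genes 4.05%, 3.75% and 8.61% were called higher in these comparisons, and 3.58%, 3.2% and 6.4% lower. FLC libraries held 76 and 107 reads in hda6, 232 and 190 in ldl1/2, and 396 and 362 in hda6/ldl1/2, for means of 1.64, 4.31 and 6.90 RPKM, and the 3 mutants did not overlap. FT had its lowest mean in ldl1/2, where FLC was 3.23-fold of WT, and not in hda6/ldl1/2-labelled samples, where FLC was 5.78-fold of WT in the authors' deposited tables. SOC1 had its lowest mean in the latter. Neither gene separated the 2 groups, with intervals of -0.28 to 1.73 for FT and -0.40 to 0.25 for SOC1. The part of the FLC clade in the values of the activators was not tested. In hda6 MAF4 and MAF5 were called and FLC was not (1.30-fold, FDR 0.655), with no call among the 9 activators, in the authors' deposited table. Of 10 other floral repressors, 1 rose and 2 fell in ldl1/2, and 4 rose and 2 fell in hda6/ldl1/2-labelled samples, in the authors' deposited tables. FWA, a homeobox gene that delays flowering when it is expressed, rose in both, with log2 fold changes of 4.16 (FDR 0.00392) and 7.50 (FDR 6.16e-11) in the authors' deposited tables. It held 14 and 10 reads in ldl1/2 and 169 and 82 in hda6/ldl1/2. The lower WT mean is not printed, so the size of these changes is uncertain. The genes that fell in both were TEM1 and TEM2, which repress FT in the leaf. TEM2 fell by 0.97 in ldl1/2 and by 0.72 in hda6/ldl1/2-labelled samples, from 38.9 RPKM in WT, in the authors' deposited tables. SMZ, an AP2-type repressor of FT, rose in hda6/ldl1/2-labelled samples by 0.89 in the authors' deposited table. SVP, the MADS-box partner of FLC, stood between 1.04-fold lower and 1.02-fold higher in the 3 authors' deposited tables and did not pass.

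**Figure D3:**
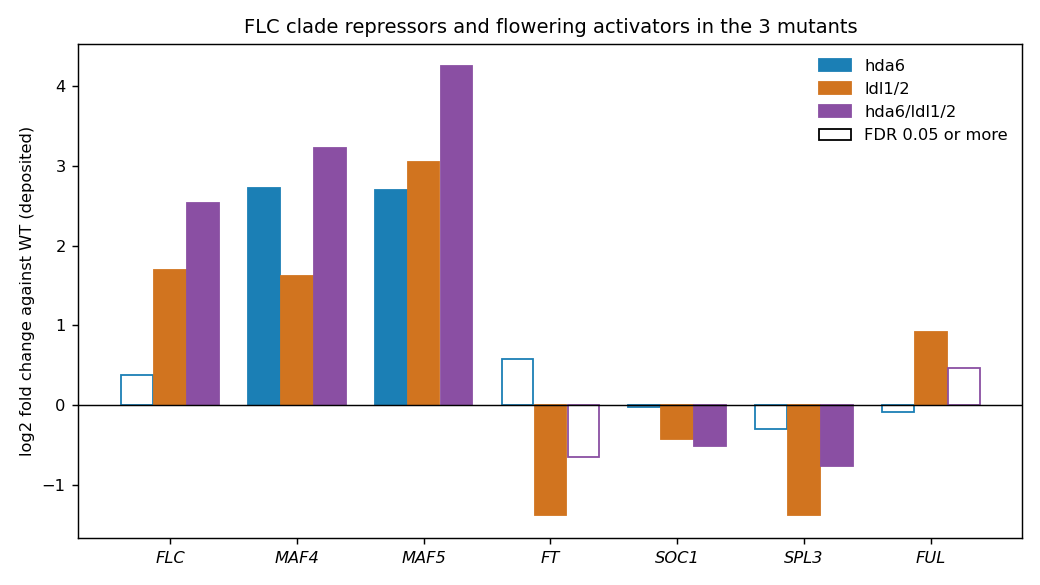
Deposited log2 fold change against WT (vertical axis) of 3 FLC clade repressors and 4 flowering activators, as bars from 0 for hda6, ldl1/2 and hda6/ldl1/2; open bars have an FDR of 0.05 or more. FLC rises from 0.38 in hda6 to 1.69 in ldl1/2 and 2.53 in hda6/ldl1/2, while FT stands at 0.58, -1.38 and -0.65.

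The targeted genes aside, 3 lists hold genes that act on FLC itself, to repress it or, for the FRIGIDA complex, to activate it. These lists gave no call. Of 9 autonomous pathway genes, 11 genes of vernalization and Polycomb repression and 5 genes of the FRIGIDA complex, 0 passed the FDR in each of the 3 comparisons of the authors' deposited tables. At an unadjusted p under 0.05 they held 0 genes in hda6, 0 in ldl1/2 and 1 gene each of the autonomous and the vernalization and Polycomb lists in hda6/ldl1/2. Their median log2 fold changes lay between -0.13 and 0.10. Of all genes with a fold change, 7.63% were called in hda6, 6.94% in ldl1/2 and 15% in hda6/ldl1/2-labelled samples.

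**Figure D4:**
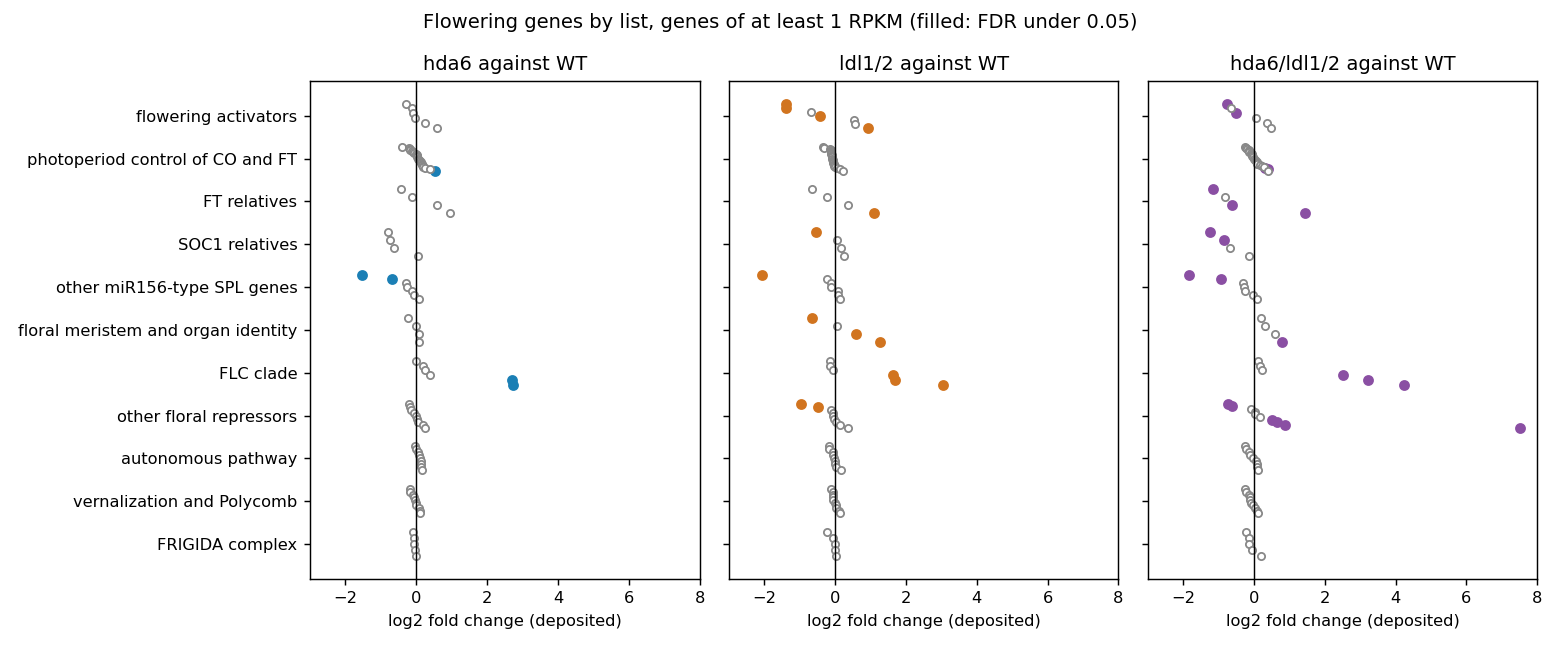
Deposited log2 fold change against WT (horizontal axis) of every gene of at least 1 RPKM in 11 lists of flowering genes (rows), 1 panel for each mutant; each point is a gene and filled points have an FDR under 0.05. The FLC clade holds filled points above 1.5 in all panels, and the 3 lists at the bottom hold none.

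Differences between mutants were taken from the deposited log2 fold changes, in which the shared WT cancels. Their intervals come from both implied standard errors and are upper bounds of the error, since each contains the WT spread; no test was run. Of 27 differences, the interval left out 0 in 6 of 9 between ldl1/2 and hda6, where 15.8% of all genes did so. It left out 0 in 2 of 9 between hda6/ldl1/2 and hda6 (8.93% of all genes) and in 2 of 9 between hda6/ldl1/2 and ldl1/2 (16.2% of all genes). FT in ldl1/2 lay 1.96 below hda6 (-1.96, interval -2.95 to -0.97), the largest in size among the differences whose interval left out 0. SPL5 in ldl1/2 lay 1.66 above hda6 (interval 0.61 to 2.71), and FUL lay 1.01 above hda6 (0.38 to 1.64). SPL3 and SOC1 in ldl1/2 lay below hda6, with differences of -1.07 (-1.56 to -0.59) and -0.40 (-0.72 to -0.08). For SPL4 the difference was 0.66 with an interval of -0.05 to 1.38, which does not separate the groups.

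Genes with the nearest patterns were sought for the members that reached a log2 fold change of 1 in size and 1 RPKM, which were FT, SPL3 and SPL5. Likeness was the Euclidean distance over the 3 deposited log2 fold changes, among 18603 genes. For FT the nearest were AT1G53875 (0.288), AT3G42800 (0.291) and ATL7 (0.343), and 16 genes lay within 0.5. For SPL3 they were AT3G14260 (0.174), AT4G34790 (0.189) and AT5G14360 (0.200), with 36 genes within 0.5. For SPL5 they were AT2G41800 (0.178), ALA8 (0.235) and AT5G60520 (0.238), with 61 genes within 0.5. Over 3 values that share 1 control, such a distance describes the tables only.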

How the data were processed

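RNA of 4 genotypes was sequenced as paired reads of 150 nt after an Illumina TruSeq preparation, per the labels. Bowtie and TAIR10 appear in the submitters' processing notes, and the test and counting rule are not given in the sources used here. The authors deposited, for each mutant against WT, the larger group mean in RPKM (read from the values, whole reads per exon length), the log2 fold change, the same as a signed fold (a score here), and a p-value with its FDR. The deposited FDR and log2 fold change are printed as they stand. By identical coordinates 33350 of 34262 genes were placed on TAIR10.1.

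Computed here (Python 3.11.15, numpy 2.4.6, pandas 2.3.3, scipy 1.17.1, numba 0.67.0, matplotlib 3.10.9) were the whole reads behind each printed mean, tested on simulated data, and lower group means from the fold change. Standard errors are those the p-values imply under a normal approximation, and intervals are 95%. Floors cover counting error only. No test between samples was run, because the labels list 1 sample per genotype. No per-library column exists in the tables, so the FDR could not be recomputed without a library.

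The members and gene lists were chosen with earlier results of these data known. Named genes were the members, the targeted genes, up to 3 called genes of at least 1 RPKM with the largest change in each list and comparison, and the 3 nearest patterns. Others (COL1, COL2, FLC in hda6, FWA in ldl1/2, RBCS1A, RCA, SVP, SPL9, SPL13B, AP1, AP3, STM, TEM1, FTIP1 and values of AGL42 and AGL14 outside their call) were named after their values were seen. Also chosen after the data were seen were the whole-read split, the leaving out of libraries, the microRNA sites and the CArG search; forms 1 letter off the box were looked at too and are not reported. SPL5 entered the pattern search because it reached 1 RPKM in 1 table. Alternatives were an FDR of 0.01, a filter at 1 RPKM, a new adjustment over genes of at least 1 RPKM, pseudocounts of 1 and 0.1 RPKM, centring on the median gene, and ratios of printed means.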

Additional observations from a re-analysis of the deposited data

Results flagged for a closer look

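In 6 cases the deposited log2 fold changes of 2 mutants had opposite signs and the interval of their difference left out 0; the difference itself was not tested. By the same rule 13% of all genes are found between ldl1/2 and hda6 (4 of the 9 activators), 5.6% between hda6/ldl1/2 and hda6 (1 of 9) and 11.5% between hda6/ldl1/2 and ldl1/2 (1 of 9). For FT the difference was -1.96 between ldl1/2 and hda6, and -1.23 between hda6/ldl1/2 and hda6. For CO it was -0.95 between ldl1/2 and hda6, although neither mutant passed the FDR against WT. For FUL it was 1.01 between ldl1/2 and hda6. For SPL5 it was 1.66 between ldl1/2 and hda6, and -1.38 between hda6/ldl1/2 and ldl1/2, again with no FDR under 0.05 against WT.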

How the results depend on the processing

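The counts of activators past the FDR (0 in hda6, 4 in ldl1/2 and 2 in hda6/ldl1/2) were the same under an FDR of 0.01, a filter at 1 RPKM and an adjustment over genes of at least 1 RPKM. Centring on the median gene kept 27 of 27 log2 values within 1 implied standard error, and ratios of printed means kept 8 of 8. A pseudocount of 1 RPKM moved 5 of 27 by more: FT to -0.93 and CO to -0.31 in ldl1/2, SPL5 to -0.41 in hda6 and to -0.33 in hda6/ldl1/2, and TSF to -0.11 in hda6/ldl1/2. One of 0.1 RPKM moved TSF in hda6/ldl1/2 to -0.82. Leaving out 1 library moved 6 of 94 values by more, of which none was past the FDR. These were LFY in ldl1/2 (-1.34 to 0.92), FUL in hda6/ldl1/2 (0.21 and 0.24) and SPL4 in hda6/ldl1/2 (0.08 and -0.04). The sign also turned for FUL in hda6 (0.07) and CO in hda6/ldl1/2 (-0.08). The cause was not tested. For the falls of FT, SPL3 and SOC1 past the FDR only WT libraries could be left out, because their lower mutant means are not printed. Whether 1 mutant library carries these falls could not be checked. No paired analysis was possible because each genotype has 1 listed sample and the libraries carry no number from the labels. Depth limits TSF most. LFY was also low, and its 2 ldl1/2 libraries differed (6 and 27 reads).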
